A study of Saccharomyces cerevisiae with 23 samples.

Results

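HAC1 of Saccharomyces cerevisiae (YFL031W) encodes the transcription factor of the unfolded protein response, and its intron is removed outside the spliceosome. The deposited tables list this intron once, and it was taken by its identifier: 1 of 284 introns in any table and 1 of the 265 that were tested. It was listed in all 23 libraries. RNA had been analysed by multiplexed primer extension sequencing, in which reverse transcription starts from primers placed beside chosen introns, so that a read shows whether the RNA still held the intron (an unspliced, or premature, count) or had lost it (a spliced, or mature, count).

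All strains were of the BY background and grew in minimal medium with 2% D-glucose. Cells were taken in log phase or at 48 h, which the labels call stationary phase or saturation. The genotypes were wild type, in 2 sets that the labels name WTa and WTb, mud1 (genotype mud1D in the labels) and nam8D. Each genotype or set had 3 libraries per time, except WTa in log phase with 2. The products of MUD1 and NAM8 are components of the U1 snRNP, which recognises the 5′ splice site for the spliceosome. No label gives an agent that stresses the endoplasmic reticulum. The labels give each library a strain name (JPY10H3, JPY2863, JPY28H5 or JPY28A8). These names recur across genotypes and differ within a set, and what they stand for is not given. Down the order of the libraries they change in runs that cross the bounds of the groups. JPY2863, for example, covers WTa 48 h replicates 2 and 3 and then WTb log-phase replicate 1. No source used here states whether replicates came from separate cultures, so p-values reflect only how these libraries vary, and that variation may be technical.

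When unfolded proteins accumulate in the endoplasmic reticulum of yeast, the membrane sensor Ire1 cuts both ends of the HAC1 intron and tRNA ligase joins the exons. Unspliced HAC1 mRNA is exported to the cytoplasm but is held back from translation by base pairing between its intron and its leader. Splicing lifts that block, and the Hac1 protein then activates genes for chaperones, lipid synthesis and secretion. Ire1 cutting does not need U1, so HAC1 serves as an intron outside the machinery that the mutated genes belong to.

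The sequences below, from RefSeq's R64 annotation and genome, show how this intron differs from those of the spliceosome. The HAC1 gene lies on chromosome VI from 75179 to 76147 on the forward strand. Its coding exon 1 runs from 75179 to 75839, the intron from 75840 to 76091 and coding exon 2 from 76092 to 76147. In the first pair, which are 30 bases around each end of the intron (chrVI:75825-75854 and chrVI:76077-76106), capitals mark the 3 bases before and the 3 bases after each cut, which spell CNGNNG at both ends; this pattern was read off HAC1's own ends. The third line is the joined product, and the last pair are the same windows of NCE101 (chrX:50397-50426 and chrX:50254-50283, reverse strand), where capitals mark the GTATGT at the start and the CAG at the end of a spliceosomal intron. NCE101 is shown because its ratio of unspliced to spliced counts followed that of HAC1 most closely, as described further on.
HAC1 exon 1 to intron: attggcgtaatcCAGCCGtgattacgatga
HAC1 intron to exon 2: tgcttgtactgtCCGAAGcgcagtcaggtt
HAC1 joined exons: attggcgtaatccagaagcgcagtcaggtt
NCE101 exon 1 to intron: ctttctattaggaaaGTATGTtcattcttc
NCE101 intron to exon 2: tggtctctattgCAGattttctgatccgtt

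The HAC1 intron began with neither GT nor GTATGT, did not end in AG and held no TACTAAC, the usual branch site. Of the 238 other tested introns that matched an annotated intron, 237 began with GT, 238 ended in AG, 188 (79.0%) began with GTATGT and 198 (83.2%) held TACTAAC. The pattern of the HAC1 ends, CNGNNG centred on the cut and searched on the transcript strand only, was found at the 5′ end of 0 and at the 3′ end of 24 (10.1%) of these 238 introns, and at both ends of 0. It needs G as the third base of the intron, which an intron that begins with GTATGT cannot have. The result at the 5′ end, and so at both ends, was therefore largely fixed in advance. COX5B, a subunit of cytochrome c oxidase, was the 1 other intron that did not begin with GT.

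The intron is 252 bases long, against a median of 145 for the other 238, of which 105 were longer. It is printed whole (chrVI:75840-76091) because it holds the run that can pair with the leader, which is in capitals.
HAC1 intron: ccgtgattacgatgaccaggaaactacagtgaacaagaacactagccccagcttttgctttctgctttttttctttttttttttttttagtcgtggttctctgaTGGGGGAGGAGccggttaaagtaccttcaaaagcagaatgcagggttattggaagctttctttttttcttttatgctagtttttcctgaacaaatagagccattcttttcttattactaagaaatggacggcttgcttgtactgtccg
HAC1 leader run: CTCCTCCCCCA
The capitals at intron positions 105 to 115 are the exact reverse complement of the leader run at chrVI:75147-75157, 32 to 22 bases before the start codon. At 11 bases this was the longest Watson-Crick run between the intron and the 100 bases before the start codon. Read through, the unspliced RNA reached a stop codon at intron position 30 after 230 codons, of which 220 lay wholly in exon 1 and 10 were its own. The spliced reading frame held 238 codons, of which 18 were its own.

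Library totals of spliced plus unspliced counts ran from 6693650 to 12068685 in log phase and from 3343811 to 5910393 at 48 h. Introns of ribosomal protein genes took 89.0% to 90.5% of counts in log phase and 64.2% to 76.8% at 48 h. No library was a copy of another, since chi-square values per degree of freedom were at least 21.5 within groups and at least 37.5 between them. MUD1, which has an intron of its own, had 1328 to 5543 spliced counts in the 17 libraries outside mud1, and in the mud1 libraries it was listed once, with 1 spliced count. NAM8 was not among the introns, so its loss was not checked here.

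HAC1 counts were almost wholly unspliced in every library. In log phase the libraries held between 1 and 13 spliced HAC1 counts beside 8180 to 16144 unspliced ones. At 48 h they held between 70 and 252 spliced counts beside 8366 to 26632. The unspliced (premature) share of HAC1 therefore lay between 99.85% and 99.99% in log phase and between 98.84% and 99.58% at 48 h, and the small spliced share carried the change between the times. No source used here says how reads over this junction, which lacks GT and AG, were aligned. If such reads were recovered less often than those over GT-AG junctions, the spliced share printed here would be too low in every library; this was not tested.

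**Figure D1:**
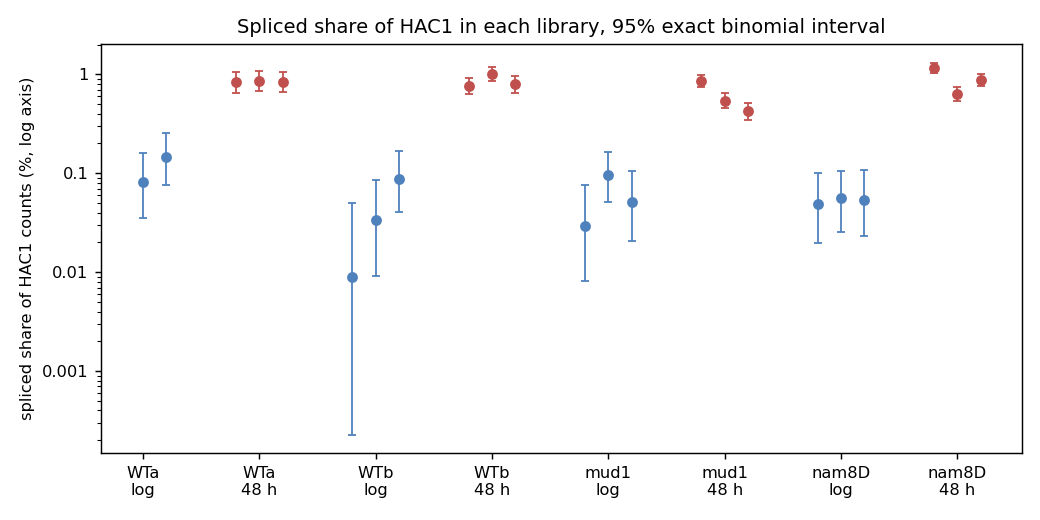
Spliced share of HAC1 counts in each of the 23 libraries (log axis, %), by group, with log phase in blue and 48 h in red. Bars are exact 95% binomial intervals, which cover counting error only. The 11 log-phase libraries lay between 0.00897% and 0.146% and the 12 libraries at 48 h between 0.424% and 1.16%.

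In wild-type set WTa the spliced share was 0.0810% and 0.146% in log phase, and 0.830%, 0.854% and 0.839% at 48 h. Set WTb had 0.00897%, 0.0333% and 0.0883% in log phase and 0.760%, 1.01% and 0.792% at 48 h. Every 48 h library of either set was above every log-phase library. The mud1 libraries had 0.0296%, 0.0956% and 0.0517% in log phase and 0.856%, 0.541% and 0.424% at 48 h. In nam8D the values were 0.0490%, 0.0557% and 0.0542%, then 1.16%, 0.631% and 0.876%. The ranges of log phase and 48 h did not overlap in any genotype.

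The mean spliced share in wild type was 0.0716% ± 0.0533 (SD, n = 5) in log phase and 0.848% ± 0.0884 (SD, n = 6) at 48 h. It was 0.0590% ± 0.0336 and 0.607% ± 0.224 in mud1, and 0.0530% ± 0.00353 and 0.890% ± 0.266 in nam8D (SD, n = 3 each). In log phase the counting error was wide: the WTb library with 1 spliced count had an exact binomial interval of 0.000227% to 0.050%. Intervals cover counting error only, since reads without molecular identifiers are not independent molecules. With counts summed over the libraries of a set, the odds of being spliced were 7.66 times higher at 48 h in WTa (95% counting interval 4.83 to 12.8), 20.6 times in WTb (12.1 to 38.0), 10.4 times in mud1 (6.92 to 16.5) and 16.8 times in nam8D (11.1 to 26.4). In an exact permutation test of libraries within the wild-type sets, the two-sided p for the lower unspliced share at 48 h was 0.005, the smallest that 200 arrangements can give, with an adjusted p of 0.015 over 6 tests. For 3 libraries against 3, as in each mutant, the smallest p is 0.1, and that was the p in both.

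Fitted across all tested introns, HAC1 had the largest fall in the ratio of unspliced to spliced counts of all 265 in each genotype. The log2 change from log phase to 48 h was -3.61 ± 0.28 in wild type (SE, edgeR quasi-likelihood test, adjusted p = 1.2e-13), where 28.7% of introns fell and 51.7% rose. It was -3.32 ± 0.35 in mud1 (adjusted p = 1.2e-10), where 15.5% fell and 64.9% rose, and -4.03 ± 0.33 in nam8D (adjusted p = 3.2e-13), where 9.81% fell and 70.9% rose. The median of all introns moved the other way, by 0.29, 1.08 and 1.10. Over the 103 introns of ribosomal protein genes the medians were 1.07, 2.05 and 1.95. Over the 162 other introns, HAC1 among them, they were -0.19, 0.27 and 0.48. In wild type 42 of these 162 rose and 75 fell. The next largest falls were those of the recombinase gene DMC1 at -3.08 in wild type, the meiotic checkpoint gene PCH2 at -2.18 in mud1 and the glycolytic activator gene GCR1 at -1.70 in nam8D. With WTa alone the fall was -2.90 and the third largest, and with WTb alone it was -4.31 and the largest.

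Spliced and unspliced counts were then taken separately as CPM, counts scaled to a library total of 1000000, a level relative to the other primed targets; RNA per cell was not measured. Spliced HAC1 was 0.663 and 1.36 CPM in WTa in log phase and 14.6, 13.9 and 12.5 CPM at 48 h. WTb went from 0.142, 0.553 and 1.31 CPM to 25.7, 34.5 and 25.2 CPM. The mud1 libraries went from 0.572, 1.70 and 0.974 CPM to 67.8, 38.6 and 32.0 CPM, and the nam8D libraries from 0.995, 1.34 and 1.12 CPM to 56.0, 33.5 and 49.4 CPM. Log-phase levels overlapped between all 4 sets, whereas at 48 h all WTa libraries were below all WTb libraries.

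Spliced HAC1 rose 24.1-fold in wild type (95% interval 15.4 to 37.7, edgeR adjusted p = 1.3e-12), 41.2-fold in mud1 (24.4 to 69.7, adjusted p = 1.6e-12) and 39.5-fold in nam8D (23.6 to 66.3, adjusted p = 2.2e-12). It was the second largest rise of 265 introns in each genotype, after MRA1 in wild type and after MND1, a meiotic recombination gene, in both mutants. By wild-type set the rise was 13.9-fold in WTa (interval 7.26 to 26.7), rank 4 from the highest, and 41.7-fold in WTb (22.8 to 76.2), rank 1. The log2 difference of 1.58 between the sets did not pass (edgeR adjusted p = 0.284), where 1 intron was higher and 2 were lower. Spliced counts rose for 59.6% of introns in wild type, 52.1% in mud1 and 53.2% in nam8D, with medians of 0.41, 0.26 and 0.24 on the log2 scale. With ribosomal protein introns left out of the library total, the scaling that moved the medians most, the HAC1 log2 change was still 3.14, 3.69 and 4.08, while 59 introns rose and 192 fell in wild type, 53 and 192 in mud1, and 52 and 182 in nam8D. The exact permutation test on spliced CPM in wild type gave the same p of 0.005, for a difference of 20.3 CPM.

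**Figure D2:**
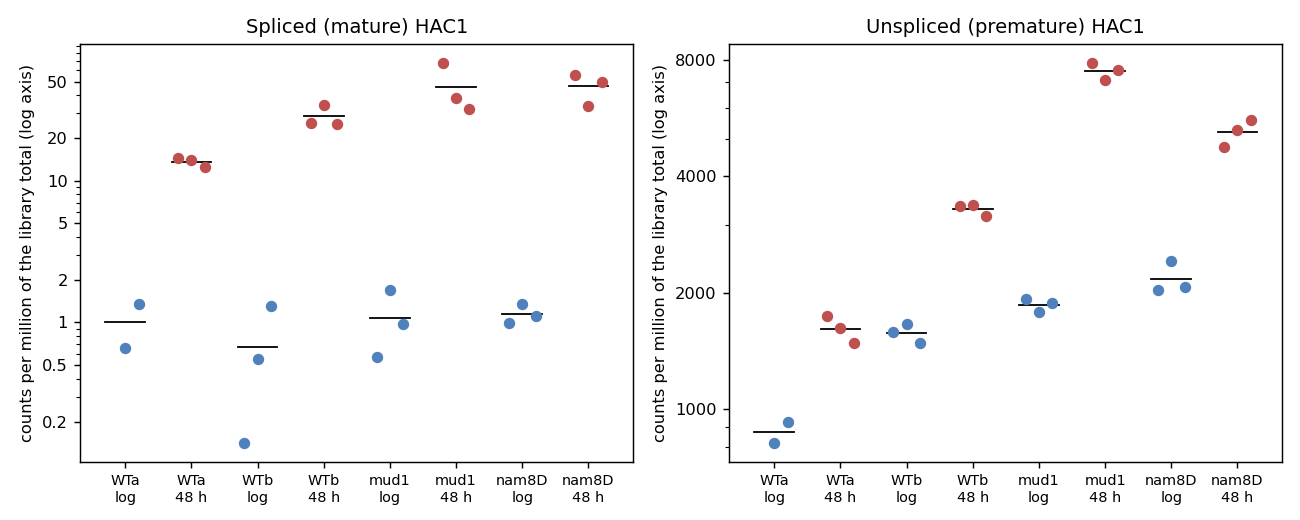
Spliced (left) and unspliced (right) HAC1 CPM in each library (log axes), with group means as lines; log phase is blue and 48 h red. Spliced levels were 0.142 to 1.70 CPM in log phase and 12.5 to 67.8 CPM at 48 h, and unspliced levels 818 to 2412 CPM and 1480 to 7851 CPM; in wild type and nam8D the rise of the unspliced counts depends on counting ribosomal protein introns in the total.

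Unspliced HAC1 was 818 and 924 CPM in WTa in log phase and 1742, 1616 and 1480 CPM at 48 h. WTb had 1579, 1659 and 1482 CPM, then 3353, 3364 and 3152 CPM. In mud1 the values were 1929, 1779 and 1883 CPM, then 7851, 7097 and 7518 CPM. The nam8D libraries had 2031, 2412 and 2066 CPM, then 4759, 5272 and 5589 CPM. Within each set the times did not overlap, but WTa at 48 h was no higher than nam8D in log phase.

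The direction of unspliced HAC1 in wild type, and its call in nam8D, rested on the scaling. Per library total unspliced HAC1 rose 1.97-fold in wild type (edgeR adjusted p = 1.7e-16), 4.02-fold in mud1 (adjusted p = 8.8e-23) and 2.40-fold in nam8D (adjusted p = 2.6e-16), as did 86%, 91.7% and 93.6% of introns. It also rose, and passed, with edgeR's TMM and RLE factors on the total. The log2 changes were 0.72 and 0.48 in wild type, 1.71 and 1.52 in mud1, and 1.02 and 0.86 in nam8D. Medians of all introns were then 0.67 and 0.43, 1.34 and 1.15, and 1.34 and 1.18. With ribosomal protein introns left out of the total, the wild-type log2 change turned from 0.98 to -0.48 (adjusted p = 8.9e-09), the mud1 change shrank from 2.01 to 0.34 (adjusted p = 4.7e-04) and the nam8D change from 1.26 to 0.0084 (adjusted p = 0.93). On that scale 42 introns rose and 172 fell in wild type, 83 and 90 in mud1, and 130 and 52 in nam8D, and the wild-type median moved from 0.93 to -0.53. Relative to the median intron, unspliced HAC1 changed by 0.05 in wild type, 0.38 in mud1 and -0.32 in nam8D. A scaling applies the same factor to every intron of a library, so it can hardly move these differences. They moved by less than 0.02 under any scaling run, which is therefore no check of them. HAC1 held 5.12% to 11.5% of a library's unspliced counts in log phase and 4.18% to 8.82% at 48 h.

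**Figure D3:**
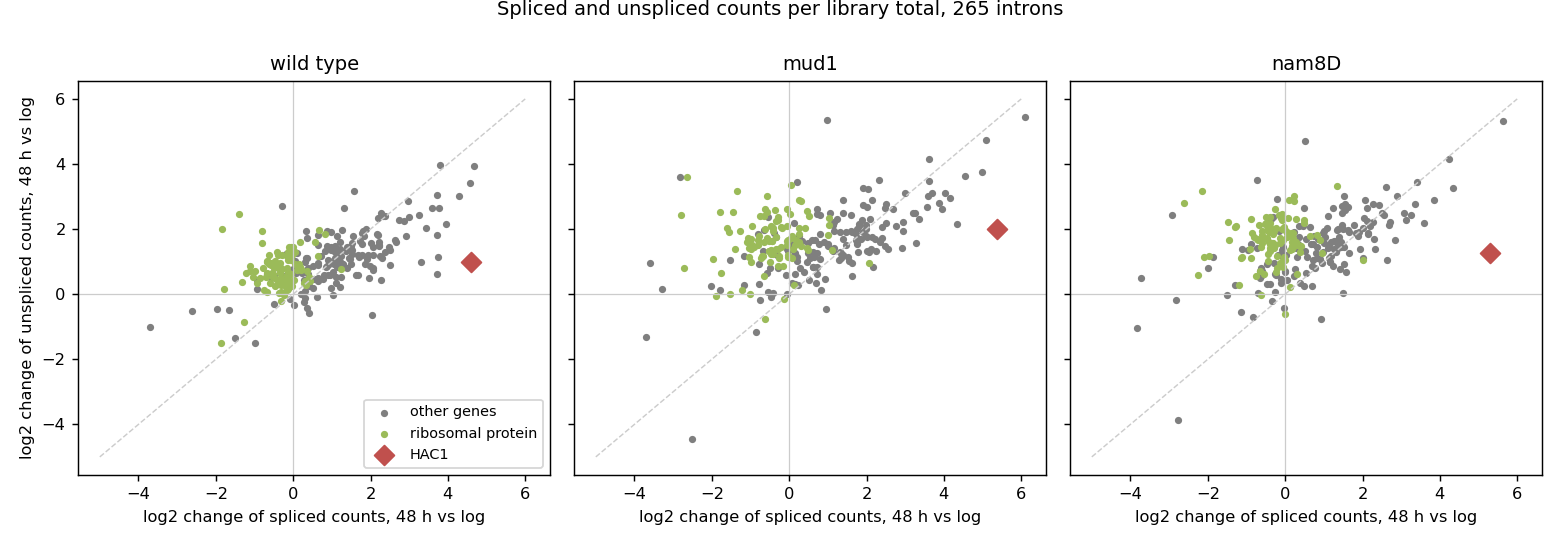
Log2 change from log phase to 48 h of spliced (x) and unspliced (y) counts per library total for the 265 tested introns in wild type, mud1 and nam8D; the dashed line marks equal change. HAC1 (red diamond) lay far to the right of the line, at 4.59 and 0.98 in wild type, 5.37 and 2.01 in mud1, and 5.30 and 1.26 in nam8D; without ribosomal protein introns in the total the unspliced change in wild type was -0.48.

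The mutants were compared with wild type to ask whether an intron outside U1's reach differed in strains with a mutated or deleted gene of a U1 protein. Both mutants are set against the same wild-type libraries. In log phase the HAC1 ratio did not pass the test in mud1 (log2 difference 0.22, 95% interval -0.90 to 1.34, edgeR adjusted p = 0.757) or in nam8D (0.38, interval -0.72 to 1.47, adjusted p = 0.613), where 47.9% and 29.4% of introns were higher. These intervals, set by 1 to 13 spliced counts per library, reach 1.34 and 1.47 on the log2 scale, so a higher ratio of that size is not excluded. At 48 h nam8D did not pass either, at -0.04 with an interval of -0.42 to 0.33 (adjusted p = 0.816), where 88.3% of introns were higher and the median was 1.01. Set against the median intron of each library, nam8D was lower than wild type by a log2 ratio of -0.93 (limma, adjusted p = 0.044).

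At 48 h the mud1 ratio was higher than wild type by 0.51 ± 0.19 (SE, edgeR adjusted p = 0.014), where 90.6% of introns were higher and the median was 1.11. The call was lost at a difference of like size with the strain name as a term (0.53, adjusted p = 0.118), limma with a pseudocount of 0.5 (0.55, adjusted p = 0.193) and DESeq2 (0.54, adjusted p = 0.211), and kept with limma and a pseudocount of 5 (0.57, adjusted p = 0.035). It was also lost without mud1 48 h replicate 2 (0.45, adjusted p = 0.0625) or replicate 3 (0.29, adjusted p = 0.168). With libraries centred on their median intron the difference was -0.36 (adjusted p = 0.415). Of the mud1 libraries at 48 h, the 1 at 0.856% spliced carries the strain name JPY10H3 and those at 0.541% and 0.424% carry JPY2863; whether they differ by strain name was not tested.

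Per library total, both forms of HAC1 RNA were higher in the mutants at 48 h. Spliced HAC1 was 2.34-fold higher in mud1 (95% interval 1.73 to 3.17, edgeR adjusted p = 1.5e-05) and 2.35-fold higher in nam8D (1.75 to 3.14, adjusted p = 1.2e-05), where 29.4% and 25.3% of introns were higher. Against WTb alone the log2 differences were 0.70 in both, against 1.23 with both sets, and still passed. In log phase spliced HAC1 did not pass in mud1 (log2 0.45, interval -0.84 to 1.74, adjusted p = 0.581) or nam8D (0.52, interval -0.78 to 1.81, adjusted p = 0.552), where 17.7% and 21.5% of introns were higher. Unspliced HAC1 was 1.59-fold higher in mud1 (adjusted p = 4.6e-09) and 1.85-fold higher in nam8D (adjusted p = 6.0e-12) in log phase, where 44.9% and 36.6% of introns were higher. At 48 h it was 3.25-fold (adjusted p = 6.2e-23) and 2.26-fold higher (adjusted p = 1.8e-17), where 89.8% and 81.5% of introns were higher. The medians of all introns at 48 h were 0.92 in mud1 and 0.77 in nam8D on the log2 scale, so most introns shared the direction. Unspliced HAC1 depended in size on the wild-type set: in log phase the log2 difference of mud1 was 0.67 with both sets, 1.10 against WTa alone and 0.24 against WTb alone (adjusted p = 0.033), and that of nam8D was 0.89, 1.32 and 0.46. At 48 h it was 1.70, 2.22 and 1.19 in mud1 and 1.18, 1.69 and 0.66 in nam8D, and each of these passed. Both directions held under each scaling run. Unspliced HAC1 also differed between the wild-type sets, with WTb above WTa by a log2 of 0.85 in log phase and 1.03 at 48 h. The tests take their spread from libraries within groups, so these p-values do not cover the spread between sets.

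**Figure D4:**
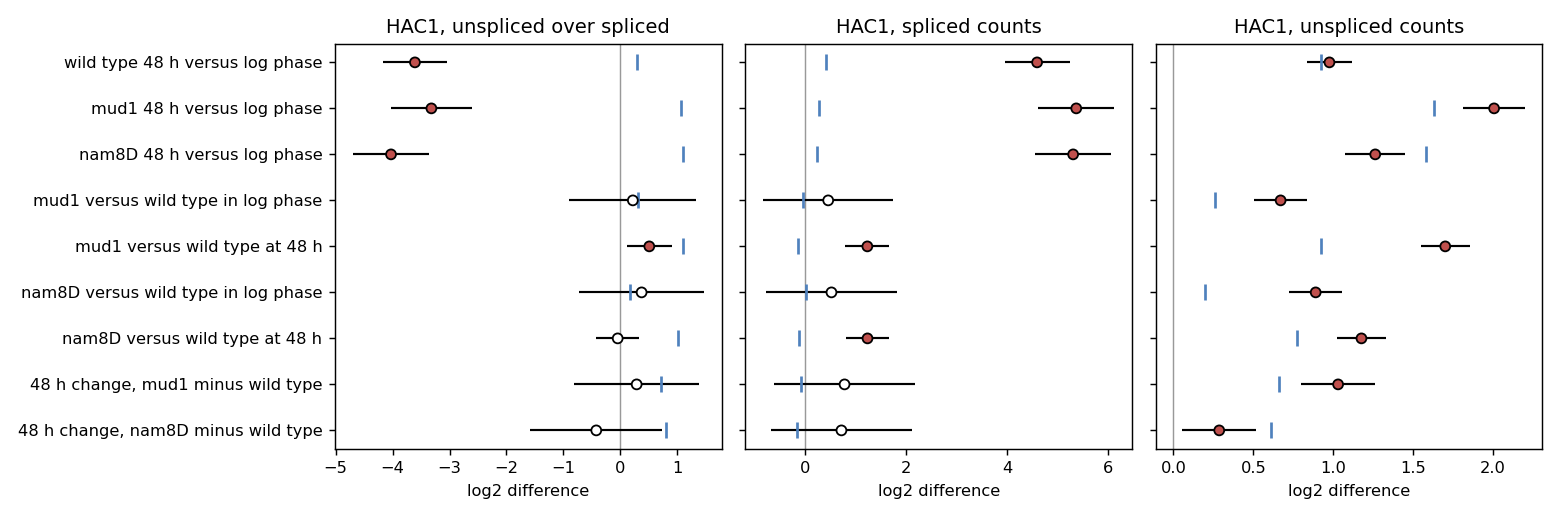
Log2 differences for HAC1 in the ratio of unspliced to spliced counts (left), spliced counts (middle) and unspliced counts (right) per library total, with 95% intervals; filled points passed an adjusted p of 0.05, and blue ticks mark the median of all 265 introns. The ratio fell in all 3 genotypes while the median of all introns rose. In wild type the median over introns outside ribosomal protein genes was -0.19. The change of unspliced counts in wild type turns from 0.98 to -0.48 without ribosomal protein introns in the total.

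Whether the 48 h change itself differed between genotypes was tested with interaction terms. For the ratio the difference from wild type was 0.29 in mud1 (interval -0.81 to 1.39, edgeR adjusted p = 0.641) and -0.42 in nam8D (interval -1.58 to 0.74, adjusted p = 0.50), where 70.2% and 78.9% of introns passed in either direction. Spliced counts gave 0.78 (adjusted p = 0.324) and 0.71 (adjusted p = 0.367), where 67.9% and 58.9% passed. For unspliced counts the change in mud1 exceeded that in wild type by 1.03 ± 0.12 (SE, adjusted p = 4.2e-10), where 65.3% of introns were higher and the median was 0.66. In nam8D it exceeded wild type by 0.29 ± 0.12 (adjusted p = 0.027), where 60% were higher and the median was 0.61. The nam8D call was lost with the strain name as a term (0.20), with WTb alone as wild type (0.20), and without any 1 of 6 libraries: WTa log phase replicate 3 (0.24), WTa 48 h replicate 3 (0.26), nam8D log phase replicate 1 (0.24) or 3 (0.25), and nam8D 48 h replicate 2 (0.28) or 3 (0.23).

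The 2 wild-type sets were compared with each other after the data had been seen, since their unspliced HAC1 levels stood apart. Unspliced HAC1 per library total was higher in WTb than in WTa by a log2 of 0.85 in log phase (edgeR adjusted p = 2.6e-08), where 21.9% of introns were higher, and by 1.03 at 48 h (adjusted p = 3.0e-12), where 47.2% were higher. Spliced HAC1 was higher in WTb at 48 h by 1.06 (adjusted p = 0.0017), the largest such difference of all tested introns, of which 22.3% were higher. In log phase its difference of -0.52 did not pass (adjusted p = 0.604), where 52.5% of introns passed in either direction. The ratio did not pass in log phase (1.39, interval 0.03 to 2.74, adjusted p = 0.085) or at 48 h (-0.02, interval -0.48 to 0.44, adjusted p = 0.940), where 47.5% and 57% of introns passed. Its fall over time was -2.90 in WTa and -4.31 in WTb, and the difference of -1.41 did not pass (adjusted p = 0.149), where 24.5% did.

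Within a strain name that a set held at both times (2 libraries in log phase, 1 at 48 h), the spliced share of HAC1 rose each time. It went from 0.114% to 0.830% in WTa under JPY10H3 and from 0.0608% to 0.760% in WTb under JPY28H5. It went from 0.0737% to 0.856% in mud1 under JPY10H3 and from 0.0549% to 1.16% in nam8D under JPY28H5. In the fit with the strain name as a term, the log2 ratio fell by 3.82 in wild type (edgeR adjusted p = 4.1e-13), by 3.52 in mud1 (adjusted p = 3.7e-10) and by 4.10 in nam8D (adjusted p = 9.7e-12). Because the names run across sets, times and genotypes, neither reading can be taken to hold a strain constant.

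HAC1 had the highest unspliced share of all tested introns in 11 of 11 log-phase libraries and in 7 of 12 at 48 h. It was passed by MTR2, part of the mRNA export receptor, in 5 libraries at 48 h (3 mud1 and 2 nam8D) and by RPL18B, a ribosomal protein gene, in 1. This order sets HAC1 beside introns with GT and AG ends, so the untested recovery of reads over its junction bears on its rank too. At most 20 spliced counts in every log-phase library was a trait of 4 tested introns, those of HAC1, the meiotic genes PCH2 and REC102 and the spore wall gene LDS2.

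In wild type in log phase, 7 introns were at least 80% unspliced on average. These were HAC1 at 99.9%, MTR2 at 98.0%, MPT5, an RNA-binding Puf protein, at 98.0%, PCH2 at 91.6%, the aminopeptidase gene APE2 at 90.0%, REC107, needed for meiotic recombination, at 87.2%, and YKR005C at 84.6%. The next, COI1, was at 74.0%. Their shares in wild type at 48 h were 99.2% for HAC1, 98.5% for MTR2, 90.3% for MPT5, 63.9% for PCH2, 88.5% for APE2, 88.6% for REC107 and 72.5% for YKR005C. The log2 ratio fell in wild type for MPT5 (-2.34, edgeR adjusted p = 2.4e-17), PCH2 (-2.59, adjusted p = 3.1e-10) and YKR005C (-1.09, adjusted p = 4.5e-05) as well as for HAC1. It rose for MTR2 (0.43, adjusted p = 0.0014) and did not pass for APE2 (-0.06, adjusted p = 0.532) or REC107 (0.24, adjusted p = 0.147). In mud1 the changes of MPT5 (-0.38, adjusted p = 0.055) and YKR005C (-0.77, adjusted p = 0.069) did not pass, and in nam8D those of PCH2 (-1.19, adjusted p = 0.079) and YKR005C (-0.60, adjusted p = 0.155) did not. HAC1 passed in all 3 genotypes.

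Over the 23 libraries, the introns whose ratio followed that of HAC1 most closely were NCE101, a gene of protein export without a signal sequence (Spearman rho 0.867), COX5B (0.860) and QCR10, a subunit of the cytochrome bc1 complex (0.849), against a median rho of -0.333 over all introns. The libraries share their 2 times and 4 sets, so these values describe the pattern and carry no test. The log2 ratio of NCE101 was 0.14 to 0.83 in log phase and -0.62 to -0.03 at 48 h, without overlap. By spliced CPM the closest were TFC3, a subunit of the RNA polymerase III factor TFIIIC (0.947), NCE101 (0.921) and COX5B (0.914), with a median of 0.390. By unspliced CPM they were the second intron of SUS1, a gene of transcription and mRNA export (0.951), SRC1, an inner nuclear membrane protein (0.949), and TUB1, alpha-tubulin (0.948), with a median of 0.734.

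Genes of the endoplasmic reticulum and early secretory pathway that carry spliceosomal introns were read beside HAC1. Of 14 listed genes 13 were in the tables, with 14 tested introns, since YOS1 has 2. In wild type at 48 h the ratio of unspliced to spliced counts was higher for 4 and lower for 6 of the 14. Of all introns 51.7% were higher and 28.7% lower. The median log2 change of the list was -0.05, against 0.29 over all introns. Over the 162 introns outside ribosomal protein genes the median was -0.19, with 42 higher and 75 lower. SEC14, a phospholipid transfer protein of the Golgi (1.43, edgeR adjusted p = 9.5e-11), and YIP3, a Rab-interacting vesicle protein (0.89, adjusted p = 8.5e-05), rose. BOS1 (-1.28, adjusted p = 3.1e-13) and BET1 (-0.92, adjusted p = 1.4e-09), SNAREs of transport from the endoplasmic reticulum to the Golgi, fell. In mud1 6 of the list were higher and 5 lower (median -0.01), where 64.9% of all introns were higher and 15.5% lower (median 1.08). Outside ribosomal protein genes 74 introns were higher and 40 lower in mud1 (median 0.27). In nam8D 5 of the list were higher and the other 9 did not pass (median 0.14), where 70.9% of all introns were higher and 9.81% lower (median 1.10). Outside ribosomal protein genes 88 were higher and 24 lower in nam8D (median 0.48). Spliced counts of the list per library total rose for 13 and fell for 1 in wild type, with a median of 1.15. Over all introns the median was 0.41, and 59.6% rose and 32.5% fell. Over introns outside ribosomal protein genes it was 1.22, and 141 rose and 15 fell, so the list lay near these. With ribosomal protein introns left out of the total 4 of the list rose and 8 fell (median -0.31), where 59 of all introns rose and 192 fell (median -1.05). No median over introns outside ribosomal protein genes was taken on that scale, so whether the list lay near these there was not tested. Unspliced counts of the list rose for 14 of 14 per library total (median 1.05), where 86% of all introns rose (median 0.93). On the other scale 1 rose and 8 fell (median -0.41), where 42 of all introns rose and 172 fell (median -0.53), so the list lay near the background on both.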

How the data were processed

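The authors deposited 4 tables of whole-number mature and premature counts per intron and library, and the headers of the count columns name no normalization. The submitters' processing notes name genome build R64 and the tools STAR 2.7.2b, fastp 0.20.0 and FastQC, without roles. How reads were called mature, including how a junction without GT and AG was aligned, whether molecular identifiers were used and how strand was treated are not given in the sources used here. Libraries were grouped by set, genotype and time from the labels. Introns listed in all 23 libraries with a mean of at least 20 counts were tested (265).

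The ratio test was edgeR's quasi-likelihood test (version 4.0.16, R 4.3.3): premature and mature counts as 2 columns per library, 1 term per library and 1 per group for the premature column, in 1 fit of all libraries. Mature and premature counts were tested separately with the library total as library size. Wild type is the mean of WTa and WTb. Adjusted p-values are Benjamini-Hochberg over the tested introns, two-sided, threshold 0.05. Alternatives used DESeq2 1.42.0 and limma 3.58.1 with pseudocounts of 0.5 and 5; the rest used Python 3.11.15 with pandas 2.3.3, scipy 1.17.1, matplotlib 3.10.9 and numpy 2.4.6.

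Named introns were HAC1, MUD1 and NAM8, the 3 most like HAC1 by Spearman rho in each of 3 measures, those at least 80% premature in wild type in log phase, and the 2 smallest p-values per direction of the secretory list in wild type. Introns named for a rank beside HAC1 were added after their values were seen. The gene, the lists and the tests were chosen with earlier results of these data known. Same-numbered libraries did not deviate together (correlations of -0.308 to 0.249 over 77 pairs), so replicate numbers were not treated as pairs.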

Additional observations from a re-analysis of the deposited data

Results flagged for a closer look

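In wild type at 48 h, the spliced share of HAC1 in WTb replicate 2 was 1.01%, while the other 5 libraries lay between 0.760% and 0.854%. Its gap to the nearest library was 0.631 of the whole range, above the limit for 6 samples. Of 8 gap tests run, chance flags about 1 in 20. The change of unspliced HAC1 from log phase to 48 h differed from that in wild type by a log2 of 1.03 in mud1 and 0.287 in nam8D, out of 9 interaction tests read (edgeR adjusted p = 4.2e-10 and 0.027). Counted without ribosomal protein introns in the total, these differences were 0.83 and 0.49 (adjusted p = 3.5e-08 and 6.3e-05). The share of ribosomal protein introns at 48 h was 67.5% on average in mud1, 74.7% in nam8D, 73.8% in WTa and 73.3% in WTb, and its part in these differences was not tested beyond that rescaling.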

How the results depend on the processing

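The fall of the HAC1 ratio at 48 h and the rise of spliced HAC1 kept direction and call in all 3 genotypes under every alternative run: log2 ratios ran from -4.31 to -2.90 in wild type, -4.13 to -2.72 in mud1 and -5.06 to -3.37 in nam8D. With ribosomal protein introns left out of the total, the change of unspliced HAC1 was -0.485 in wild type and 0.00844 in nam8D. The mud1 difference in ratio at 48 h lost its call with a strain term (0.533), limma at a pseudocount of 0.5 (0.546) and DESeq2 (0.54), kept it with limma at a pseudocount of 5 (0.569), and turned to -0.356 with centred libraries; nam8D at 48 h was 0.00662 with a pseudocount of 5 and passed at -0.928 when centred. In log phase the ratio difference was -0.471 (WTb alone) and -0.233 (centred) in mud1 and -0.317 (WTb alone) in nam8D. The ratio interaction was -0.414 (WTa alone) and -0.123 (centred) in mud1 and 0.283 (WTb alone) in nam8D. With WTb alone the interactions of spliced counts were -0.0166 in mud1 and -0.0783 in nam8D. The nam8D interaction of unspliced counts was 0.203 with a strain term and 0.199 with WTb alone. The causes of these moves were not tested. Leaving out 1 library at a time, the ratio difference from wild type ran from -0.239 to 0.748 (mud1, log phase), -0.085 to 0.611 (nam8D, log phase), 0.294 to 0.825 (mud1, 48 h) and -0.26 to 0.182 (nam8D, 48 h). The ratio interactions ran from -0.236 to 0.751 in mud1 and -0.655 to 0.0409 in nam8D, spliced counts in mud1 in log phase from -0.0399 to 0.892, and the nam8D interaction of unspliced counts from 0.233 to 0.369. With the replicate block, the number as a term, the wild-type ratio change was -3.57 and the block changed no HAC1 call. Depth limits the log-phase comparisons, where a library held at most 13 spliced HAC1 counts.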
